A study of Gossypium hirsutum with 3 samples.

Results

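The MYB and MYB-related transcription factors (TFs) with unequal expression of their homeologs were examined in cotton leaves. The 43 genes were chosen by measured values of these same libraries, since they are the genes with the family MYB or MYB-related in the study's list of TFs whose A and D homeologs differed in leaf FPKM. They made up 11.2% of the 384 listed TFs and were found among the 70478 genes with a value in every library. There were 32 MYB genes, 14 of them A-biased and 18 D-biased, and 11 MYB-related genes, 7 A-biased and 4 D-biased. A biased TF is the homeolog with the higher FPKM, and the less expressed homeolog was at hand for 3 of the 43 genes. The direction of bias and a mean FPKM of at least 1 therefore follow from the choice and are given as a description.

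RNA was taken from true leaves of untreated Gossypium hirsutum plants, an allotetraploid cotton, at an age of 20 days, and 3 replicate libraries of this single condition (cultivar TM-1) were sequenced. The nucleus of this species holds an A and a D subgenome, and most genes have a copy, the homeolog, in each. The values are FPKM, fragments scaled by exon length and by the mapped total of the library, which can be compared between genes because they are divided by transcript length. The labels do not say whether the libraries come from separate plants, so the SD between libraries may be technical. The files pair no gene names with the identifiers, and chromosomes were read from the identifiers. For the same reason the leaf label could not be checked against marker genes.

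MYB proteins bind DNA through helix-turn-helix repeats named after the MYB oncogene. In plants the large class with a pair of such repeats controls phenylpropanoid and flavonoid metabolism, the fate of epidermal cells such as trichomes, and responses to stress, and in cotton members of this class act in the growth of seed fibres. MYB-related proteins mostly carry a single or partial repeat, and in Arabidopsis they include core factors of the circadian clock and inhibitors of trichome formation. Many MYB proteins work together with bHLH proteins, another large TF family. H3K4me3 is a histone mark of active genes and H3K27me3 a mark of genes repressed by Polycomb proteins.

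The most highly expressed gene of the set was Gh_A06G0188, an A-biased MYB gene at FPKM 78.8, 74.9 and 93.3 in replicates 1, 2 and 3, which ranked 11 among the 384 TFs. Next came Gh_A08G1106 at FPKM 50.3, 44.2 and 49.5, also an A-biased MYB gene. It was the 1 gene of the set in the study's leaf-related co-expression module, a group of genes with similar profiles across tissues. The share of all genes in that module was not computed. Both genes are listed with H3K4me3 only, and together they held 28.0% of the summed FPKM of the set. The highest D-biased gene was the MYB gene Gh_D11G1978 at FPKM 33.1, 32.2 and 35.5. It lay below both A-biased genes in each library. At the other end was the D-biased MYB gene Gh_D12G2468, at FPKM 1.06, 0.837 and 1.14, a mean 81.1-fold below that of Gh_A06G0188. Its mean of 1.01 FPKM lies just inside the minimum of 1 for expressed genes, and TFs just outside the list were not analysed here. In whole leaves, fewer cells that express a gene and less RNA per cell cannot be told apart.

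**Figure D1:**
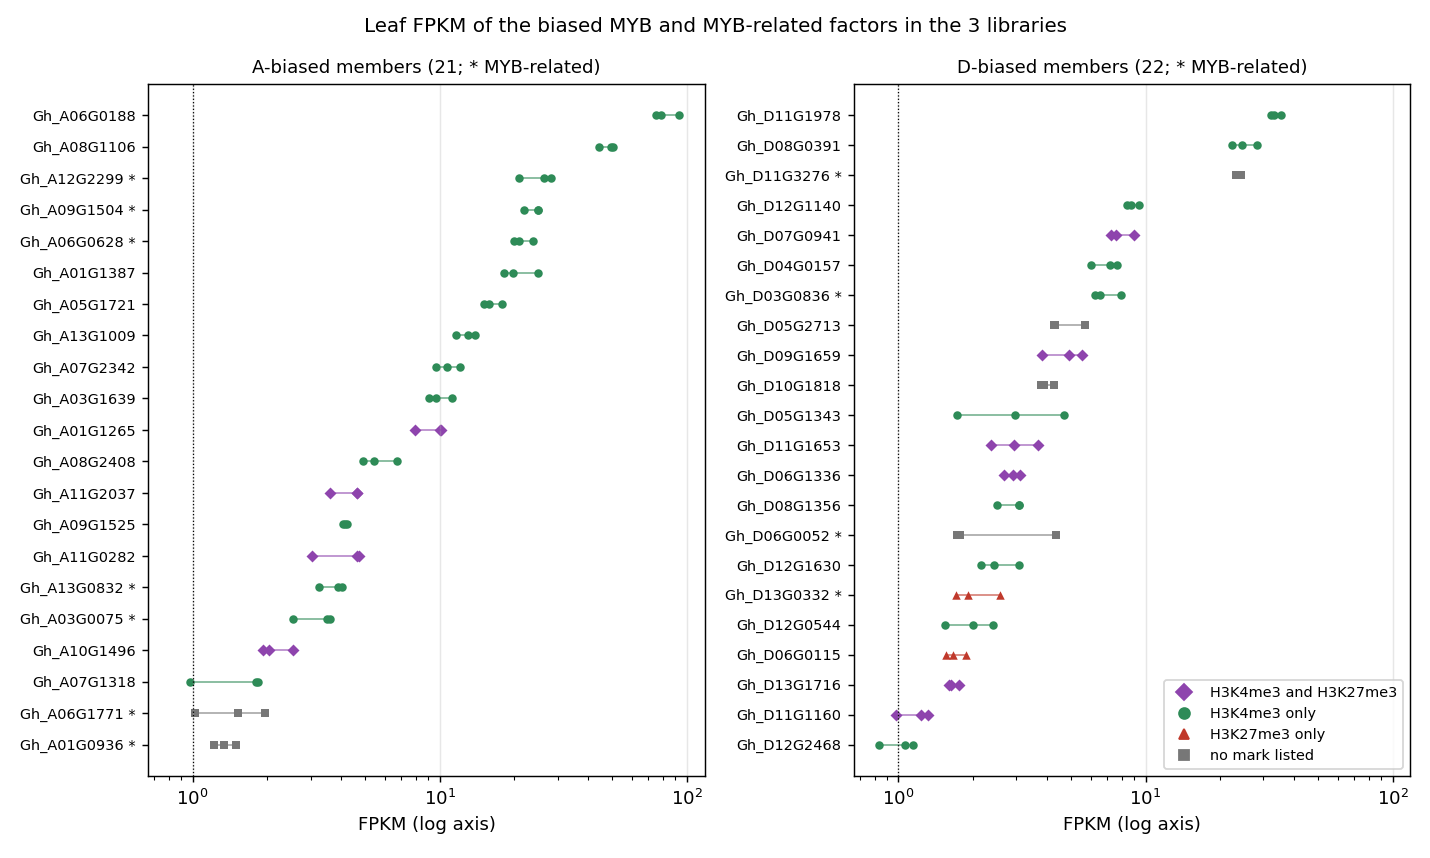
FPKM (log axis) of each gene of the set in the 3 libraries, A-biased genes on the left and D-biased genes on the right, ordered by mean FPKM; points are libraries, lines join a gene's lowest and highest library, colours and shapes give the listed histone mark, asterisks mark MYB-related genes and the dotted line is FPKM 1. The A-biased genes reach 82.3 and the D-biased genes 33.6 in mean FPKM, and 3 genes have a library below FPKM 1.

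The A-biased MYB genes spanned a mean FPKM of 1.54 to 82.3. After Gh_A06G0188 and Gh_A08G1106 came Gh_A01G1387 at 21.0 ± 3.59 FPKM (SD, n = 3 libraries) and Gh_A05G1721 at 16.3 ± 1.48 FPKM (SD, n = 3). Gh_A13G1009, Gh_A07G2342 and Gh_A03G1639 followed at means of 12.8, 10.8 and 9.97 FPKM, and Gh_A01G1265 at 9.35 ± 1.20 FPKM (SD, n = 3). The lowest library value of these 8 genes was FPKM 7.96, whereas the remaining 6 A-biased MYB genes reached at most 6.72. Gh_A08G2408 was at 5.68 ± 0.945 FPKM (SD, n = 3), and Gh_A11G2037, Gh_A09G1525 and Gh_A11G0282 lay close to each other at means of 4.28, 4.13 and 4.13 FPKM. Their ranges over the libraries overlapped, from 3.61 to 4.63 for Gh_A11G2037, from 4.07 to 4.20 for Gh_A09G1525 and from 3.05 to 4.69 for Gh_A11G0282, so their order was not settled. Gh_A10G1496 stood at FPKM 1.93, 2.56 and 2.04 in replicates 1, 2 and 3. The lowest was Gh_A07G1318 at FPKM 1.80, 0.973 and 1.83, below 1 in replicate 2 alone. It was also the 1 gene of the set in the list, used for chromosomes A01 to A09 and part of A10, of genes with broad H3K4me3 over the promoter. The D-biased genes and those on A11 to A13 could not be looked up in it. The share of all genes in that list was not computed, so this count is a description only.

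The A-biased MYB-related genes fell apart into a high and a low group with nothing between mean FPKM 3.71 and 21.6. The high group held Gh_A12G2299 at FPKM 26.5, 28.3 and 20.9 in replicates 1, 2 and 3, Gh_A09G1504 at 24.0 ± 1.72 FPKM (SD, n = 3) and Gh_A06G0628 at 21.6 ± 1.95 FPKM (SD, n = 3). The values of these 3 genes overlapped between libraries, and each was lowest in replicate 3. The low group held Gh_A13G0832 at 3.71 ± 0.413 FPKM (SD, n = 3), Gh_A03G0075 at 3.22 ± 0.581 FPKM (SD, n = 3), Gh_A06G1771 and Gh_A01G0936. Gh_A06G1771 stood at FPKM 1.53, 1.02 and 1.97 in replicates 1, 2 and 3 and Gh_A01G0936 at 1.33, 1.49 and 1.22, and no mark is listed for either. All 5 other A-biased MYB-related genes are listed with H3K4me3 only.

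Among the D-biased MYB genes, only Gh_D11G1978 and Gh_D08G0391 reached a mean FPKM of 10. Gh_D08G0391 was at FPKM 24.6, 22.3 and 28.1 in replicates 1, 2 and 3, below Gh_D11G1978 in every library. Below them, Gh_D12G1140, Gh_D07G0941 and Gh_D04G0157 had means of 8.86, 7.94 and 6.96 FPKM, and Gh_D05G2713, Gh_D09G1659 and Gh_D10G1818 had means of 4.76, 4.75 and 3.98 FPKM. The ranges of Gh_D05G2713 and Gh_D09G1659 overlapped, from 4.27 to 5.70 and from 3.81 to 5.53 FPKM. Gh_D05G1343, Gh_D11G1653, Gh_D06G1336, Gh_D08G1356 and Gh_D12G1630 had means of 3.12, 2.99, 2.90, 2.89 and 2.56 FPKM, and all 5 overlapped in their libraries. Below mean FPKM 2 were Gh_D12G0544 at 1.98 ± 0.437 FPKM (SD, n = 3), Gh_D06G0115 at 1.56, 1.66 and 1.88 FPKM in replicates 1, 2 and 3, Gh_D13G1716 at 1.75, 1.61 and 1.63 FPKM, Gh_D11G1160 at 0.978, 1.31 and 1.24 FPKM, and Gh_D12G2468. Gh_D11G1160 was below 1 in replicate 1 and Gh_D12G2468 in replicate 2.

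The D-biased MYB-related genes were led by Gh_D11G3276 at FPKM 23.7, 24.3 and 23.1 in replicates 1, 2 and 3, within the range of the 3 high A-biased MYB-related genes. Gh_D03G0836 was at FPKM 6.56, 6.25 and 7.94. Gh_D06G0052 had FPKM of 1.77, 1.72 and 4.33, so that its mean of 2.61 was carried by replicate 3. Gh_D13G0332 was at FPKM 1.72, 1.91 and 2.58, also highest in replicate 3. FPKM was 1 or more in every library for all 11 MYB-related genes and for 29 of the 32 MYB genes. The same held for 329 of the 341 other listed TFs. Over all genes with a mean of at least 1, it held for 18689 of 19678 A-subgenome and 19329 of 20381 D-subgenome genes. Such counts largely follow from the minimum mean of 1 in the choice.

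The first question was whether the A-biased genes of the set differed in level from the D-biased genes. The A-biased genes were higher, with a median FPKM of 9.35 against 3.05 for the D-biased genes. A mean of at least 10 was reached by 9 of the 21 A-biased genes against 3 of the 22 D-biased genes. Of the other listed TFs, 61 of 159 A-biased and 64 of 182 D-biased ones reached it. Over all genes with a mean of at least 1, 7512 of 19678 A-subgenome and 7735 of 20381 D-subgenome genes did. The A-biased share of the set lay near these shares and the D-biased share below them. Below a mean FPKM of 3 there were 4 A-biased and 11 D-biased genes of the set. The lower quartile of mean FPKM was 3.71 and 2.19 for these groups, against 2.44 and 3.01 for the other A-biased and D-biased TFs. Over all genes with a mean of at least 1 it was 3.14 in either subgenome. Mean log2(FPKM + 1) was 3.25 ± 0.04 (SD, n = 3 libraries) for the A-biased genes and 2.45 ± 0.02 (SD, n = 3) for the D-biased genes. The A-biased mean was higher by 0.81, 0.77 and 0.82 on the log2 scale in replicates 1, 2 and 3, an average of 0.80 ± 0.03 (SD, n = 3). With the median over genes in place of the mean it was 1.20. The A-biased genes held 67.2% of the summed FPKM of the set. The levels of single genes overlapped widely, with an SD over genes of 1.46 for the A-biased and 1.15 for the D-biased genes on the log2 scale, both larger than the gap. Genes of a library are not replicates, and sign flips of 3 libraries cannot give a two-sided p below 0.25, so no test is given for this or the other group differences.

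In the MYB family alone the A-biased genes were higher by 1.01 ± 0.11 (SD, n = 3) on the log2(FPKM + 1) scale, with median FPKM of 9.66 against 3.05 for the D-biased genes. In the MYB-related genes the A-biased genes were higher by 0.21 ± 0.24 (SD, n = 3), with a difference of -0.06 in replicate 3, and the A-biased median FPKM of 3.71 was below the D-biased median of 4.76. That small group holds 4 D-biased genes, of which 3, Gh_D06G0052, Gh_D03G0836 and Gh_D13G0332, were highest in replicate 3.

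Beside the set, the other 341 listed TFs did not show a higher level of A-biased genes. Their median FPKM was 5.63 in the 159 A-biased and 7.67 in the 182 D-biased TFs, and the A-biased mean log2(FPKM + 1) was lower by 0.11, 0.13 and 0.06 in replicates 1, 2 and 3 (differences of -0.11, -0.13 and -0.06). The D-biased genes of the set, with a mean log2 level of 2.45, lay below the other D-biased TFs at 3.16 (difference of -0.71 ± 0.01, SD, n = 3), whereas the A-biased genes of the set lay 0.19 ± 0.01 (SD, n = 3) above the other A-biased TFs. Over all genes whose FPKM averaged at least 1, the mean of the 19678 A-subgenome genes differed from that of the 20381 D-subgenome genes by 0.005 on the same scale. Over the 30 bHLH factors of the list the direction was the opposite of that in the set, with median FPKM of 2.85 in the 15 A-biased and 8.69 in the 15 D-biased genes, a difference of -1.36 ± 0.16 (SD, n = 3).

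**Figure D2:**
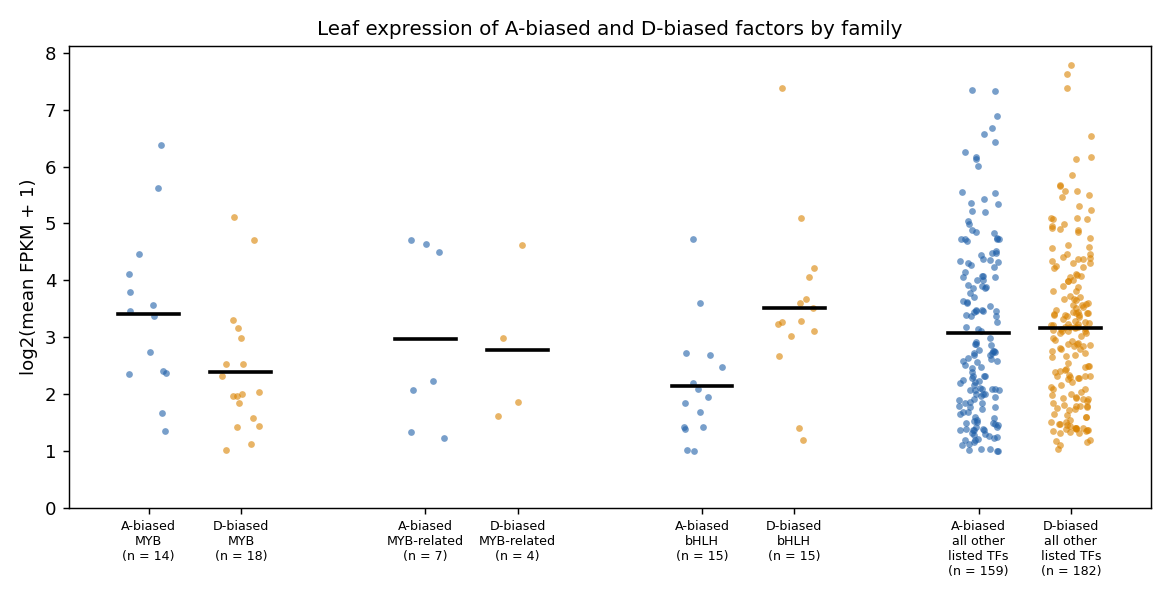
Leaf level as log2(mean FPKM + 1) of each gene, A-biased genes (blue) left of D-biased genes (orange), for MYB, MYB-related and bHLH genes and for all listed TFs outside the MYB set, bHLH included; points are genes, spread sideways for legibility, and black lines are means over genes. The A-biased MYB genes average above the D-biased ones, the bHLH genes show the opposite order, and single genes overlap in every family.

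As a whole the set was expressed at a lower level than the other listed TFs, with a median FPKM of 4.28 against 6.63. The difference in mean log2(FPKM + 1) was -0.28 in replicates 1 and 2 and -0.27 in replicate 3, and with the median over genes it was -0.51. The lower level held for the D-biased genes only, at -0.71 against 0.19 for the A-biased genes. The set held 8.28% of the summed FPKM of the listed TFs. Of the other genes of like function, the bHLH factors had FPKM of 1 or more in every library for 26 of 30 genes, with a median of 5.52, and the GARP-G2-like factors, whose DNA-binding domain resembles a MYB repeat, for 12 of 12 genes, with a median of 5.90. The set differed from the bHLH factors by 0.02 ± 0.06 (SD, n = 3) in mean log2(FPKM + 1), and from the GARP-G2-like factors by -0.16 ± 0.01 (SD, n = 3). These SDs show how the libraries differ and not how the genes do. The SD over genes was 1.36 in the set, 1.46 in the other listed TFs, 1.41 in the bHLH and 1.70 in the GARP-G2-like factors. Each was larger than these gaps.

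The second question was whether the 2 families differed. Over both directions of bias the MYB genes had a median FPKM of 4.52 against 3.71 for the MYB-related genes, and a mean log2(FPKM + 1) of 2.82 ± 0.02 (SD, n = 3) against 2.88 ± 0.08 (SD, n = 3). The difference of the means was 0.03, -0.07 and -0.12 in replicates 1, 2 and 3, so it changed sign between libraries, and the median over genes gave 0.20. Within the A-biased genes the MYB genes were higher than the MYB-related genes by 0.44 ± 0.12 (SD, n = 3). The SD over genes was larger, at 1.43 for the MYB and 1.59 for the MYB-related genes. Among A-biased genes with H3K4me3 alone, the mean log2 levels were 3.78 for 10 MYB and 3.63 for 5 MYB-related genes. Their medians had the opposite order, at 11.8 and 21.6 FPKM. Within the D-biased genes the difference was -0.37 ± 0.25 (SD, n = 3), at -0.23, -0.22 and -0.65 in replicates 1, 2 and 3, and -0.22 without replicate 3, the library in which 3 of the 4 D-biased MYB-related genes were highest.

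The third question was how level went with the histone marks that the study lists for each TF, from its own ChIP-seq peak calls. The ChIP-seq signal itself was not analysed here. A mark is listed for 37 of the 43 genes (86.0%), against 310 of the 341 other TFs (90.9%). H3K4me3 alone is listed for 25 genes, both marks for 10, H3K27me3 alone for 2, and no mark for 6. H3K27me3, alone or with H3K4me3, is listed for 12 genes (27.9%), against 73 of the other TFs (21.4%). All 10 genes with both marks are MYB genes, 4 A-biased and 6 D-biased.

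Genes with both marks were lower than genes with H3K4me3 alone, and so were the genes with no mark listed, given further below. The genes with both marks had a median FPKM of 3.56 against 8.86, and none of the 10 reached a mean of 10 FPKM, against 11 of the 25. Among the other listed TFs, 13 of the 59 with both marks reached it, against 102 of the 237 with H3K4me3 alone. The highest of the 10 were Gh_A01G1265 at FPKM 10.1, 7.96 and 9.98 in replicates 1, 2 and 3 and Gh_D07G0941 at 7.62, 8.97 and 7.22. The others were the A-biased Gh_A10G1496, Gh_A11G0282 and Gh_A11G2037 and the D-biased Gh_D09G1659, Gh_D11G1653, Gh_D06G1336, Gh_D13G1716 and Gh_D11G1160, the lowest at a mean of 1.18 FPKM. The difference in mean log2(FPKM + 1) was -1.11, -1.15 and -1.16 in replicates 1, 2 and 3, an average of -1.14 ± 0.03 (SD, n = 3). The classes still overlapped, because genes with H3K4me3 alone ran from Gh_D12G2468 at 1.01 to Gh_A06G0188 at 82.3 mean FPKM. A-biased genes are 15 of the 25 with H3K4me3 alone and 4 of the 10 with both marks, so the comparison was repeated within each direction of bias. It gave -1.29 ± 0.08 (SD, n = 3) in the A-biased genes, with median FPKM of 4.20 against 12.8, and -0.72 ± 0.02 (SD, n = 3) in the D-biased genes, with median FPKM of 2.95 against 5.02. Conversely, among genes with H3K4me3 alone the A-biased genes were higher than the D-biased genes by 0.99 ± 0.07 (SD, n = 3), and among genes with both marks by 0.42 ± 0.08 (SD, n = 3). The other listed TFs had the same direction, with median FPKM of 3.24 in the 59 with both marks against 8.69 in the 237 with H3K4me3 alone, and a difference of -0.69 ± 0.02 (SD, n = 3).

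The genes listed with H3K27me3 alone, the MYB gene Gh_D06G0115 and the MYB-related gene Gh_D13G0332, are both D-biased and had mean FPKM of 1.70 and 2.07. The 6 genes with no mark listed were Gh_A01G0936, Gh_A06G1771, Gh_D05G2713, Gh_D10G1818, Gh_D06G0052 and Gh_D11G3276. Their median FPKM was 3.29, against 8.86 for the genes with H3K4me3 alone. The difference in mean log2(FPKM + 1) was -1.04 ± 0.09 (SD, n = 3), near the -1.14 of the genes with both marks. The levels of these unmarked genes ran from 1.35 to 23.7 mean FPKM. Gh_D11G3276 was the only gene at FPKM 10 or more that is not listed with H3K4me3. The other 11 genes at FPKM 10 or more are all listed with H3K4me3 alone.

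**Figure D3:**
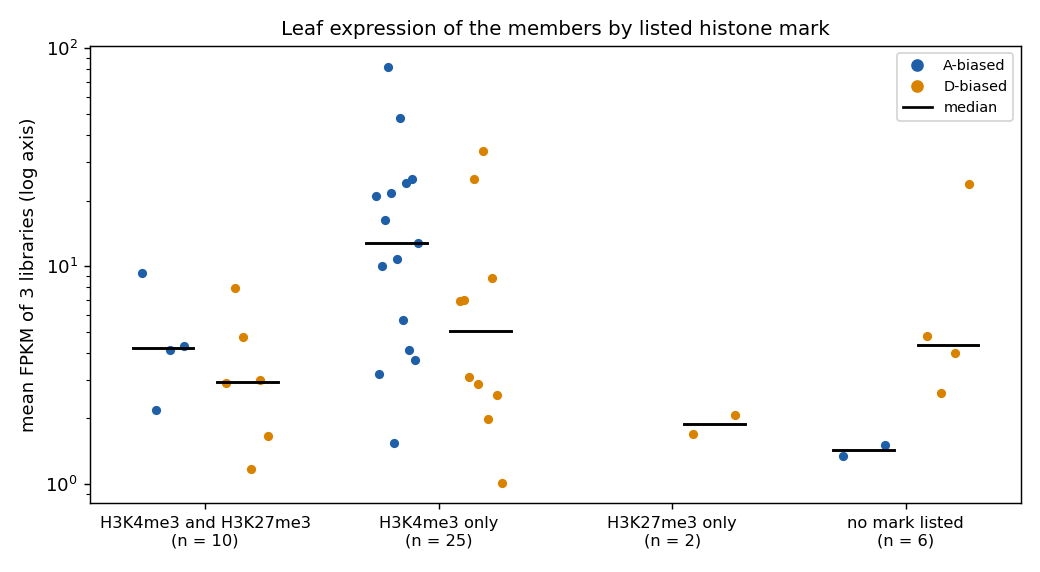
Mean FPKM over the 3 libraries (log axis) of each gene of the set by listed histone mark, A-biased genes in blue left of D-biased genes in orange, with black lines at the median. The 10 genes with both marks all lie below FPKM 10, and 11 of the 25 genes with H3K4me3 alone lie above it.

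The less expressed homeolog was known for the 3 A-biased genes on chromosome A01. Gh_A01G0936, a MYB-related gene, stood at FPKM 1.33, 1.49 and 1.22 in replicates 1, 2 and 3, while its homeolog Gh_D01G0980 was listed at 0 in every library. For the MYB gene Gh_A01G1265 the values were 10.1, 7.96 and 9.98, against 2.94, 1.65 and 2.71 for Gh_D01G1482. Both copies were lowest in replicate 2, and the ratio of the means was 3.84. For the MYB gene Gh_A01G1387 the values were 19.8, 18.3 and 25.1, against 8.02, 8.96 and 7.76 for Gh_D01G1631, with a ratio of the means of 2.55. The D homeolog was thus expressed at a mean of 8.25 FPKM in the last pair, above the median of the whole set, and the A copy exceeded it in every library without overlap. On the log2(FPKM + 0.42) scale, from a limma fit over 1999 expressed pairs (those listed for A01 and the start of A02), the A copy exceeded the D copy by 1.80 (SE 0.20) for Gh_A01G1265 and by 1.30 (SE 0.14) for Gh_A01G1387. The pseudocount of 0.42 is not a neutral choice, because it had earlier been fitted to fold changes in the study's own list of pairs. With a pseudocount of 1 the differences were 1.61 and 1.24. For Gh_A01G0936 no fold is given, because its homeolog is listed at 0 and any fitted difference is then set largely by the pseudocount. Of the pairs in which both copies had a value above 0, Gh_A01G1387 was nearer to the threshold of 1 that defined bias, with either pseudocount. All 3 were called with A higher, as the choice of the genes entails, beside 10.8% of all pairs called with A higher and 13.3% called with D higher. Both shares rest on the fitted pseudocount in the same way, and with a pseudocount of 1 the numbers of pairs called were 173 with A higher and 211 with D higher, against 215 and 265. With each column centred on its median they were 232 with A higher and 245 with D higher. Reads that fit both homeologs may have been assigned to either.

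**Figure D4:**
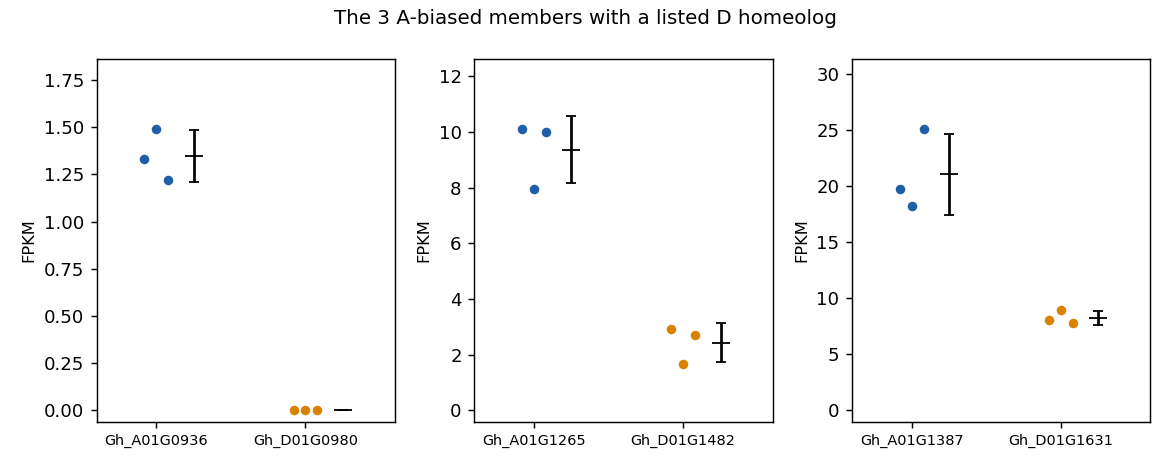
FPKM of the 3 A-biased genes of chromosome A01 (blue, left in each panel) and of their D homeologs (orange, right); points are the libraries, and black marks show the mean and SD (n = 3). Gh_D01G0980 is at 0 in every library, and Gh_D01G1482 and Gh_D01G1631 lie below their A copies without overlap.

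The libraries differed more for some genes of the set than for others. The coefficient of variation (CV), the SD as a percentage of the mean, had a median of 12.4% over the set, and it was above the median of all genes within 1.5-fold of the same mean FPKM for 24 of the 43 genes. It passed 30% for 4 genes. Gh_D06G0052 had a CV of 57.3% and Gh_D05G1343 of 47.4%, above those of 98.5% and 97.4% of genes of like level. Gh_D05G1343 stood at FPKM 2.97, 4.66 and 1.72 in replicates 1, 2 and 3, lowest where Gh_D06G0052 was highest. Gh_A07G1318 and Gh_A06G1771, at a CV of 31.7% and 31.5%, were both lowest in replicate 2, and 75.8% and 74.6% of genes of their level varied less. The steadiest genes were Gh_A09G1525 at FPKM 4.07, 4.13 and 4.20 with a CV of 1.59%, Gh_D11G3276 with 2.44% and Gh_D13G1716 with 4.76%. Replicate 3 was the highest library for 21 genes, replicate 2 for 14 and replicate 1 for 8, and replicate 2 was the lowest for 19. The share highest in replicate 3 was 48.8% in the set and 47.5% in the other listed TFs, against 32.5% of the 40861 genes with a mean of at least 1 FPKM. The share lowest in replicate 3 was 30.2% in the set and 32.0% in the other listed TFs, against 49.9% of those genes.

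**Figure D5:**
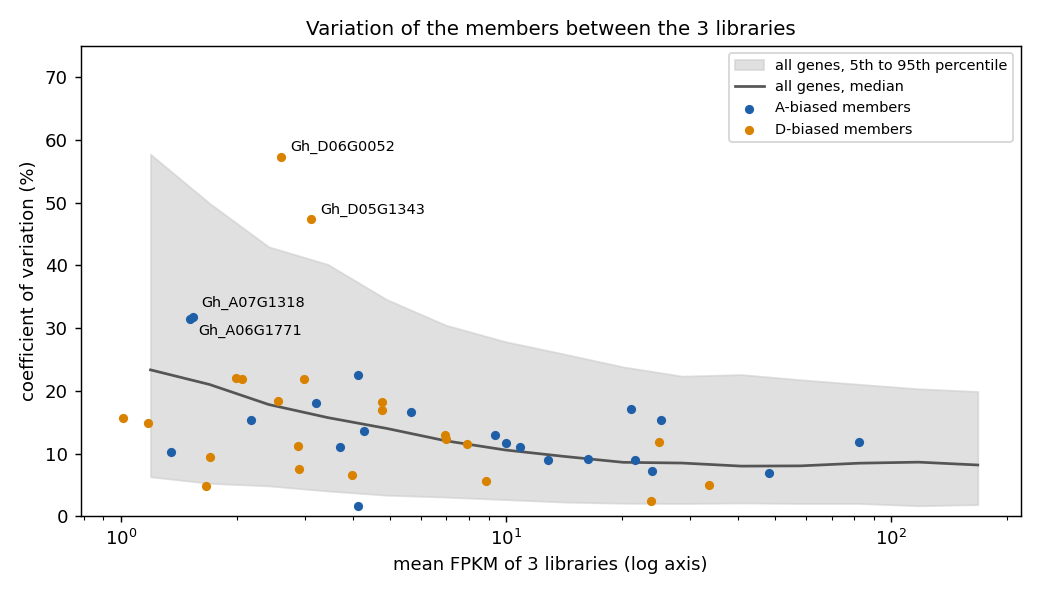
Coefficient of variation (%) over the 3 libraries against mean FPKM (log axis) for the A-biased (blue) and D-biased (orange) genes of the set, over the median (line) and the 5th to 95th percentile (grey band) of all genes. Gh_D06G0052 and Gh_D05G1343, at 57.3% and 47.4%, lie above the band, and Gh_A09G1525 at 1.59% and Gh_D13G1716 at 4.76% lie below it, with 0.876% and 4.04% of genes of like level varying less.

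The genes of the set were spread over 22 chromosomes, 11 of each subgenome. D11 and D12 held 4 genes each, A01, A06 and D06 held 3 each, and the others 1 or 2. Their levels differed along a chromosome, for on D11 Gh_D11G1160, Gh_D11G1653, Gh_D11G1978 and Gh_D11G3276 had mean FPKM of 1.18, 2.99, 33.6 and 23.7. The genes next to them in the numbering of the annotation, 86 in all, had a median FPKM of 1.98, and 59.3% of them had a mean of 1 or more, against a median of 2.36 and 60.3% for all genes on chromosomes. The neighbours were not chosen by level, unlike the genes of the set.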

How the data were processed

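The genes were taken by identifier from the study's list of biased TFs, and the marks, the leaf module, the broad H3K4me3 list and the homeologous pairs from its other lists. The members and lists were chosen with earlier results of these data known. Per the labels and methods, the authors trimmed reads with fastp (quality of 25 or more, length of 20 bp or more), aligned the trimmed reads to the genome of TM-1 by HISAT2 and derived FPKM by StringTie. Their versions are not given in the sources used here. The labels describe a step with oligo(T) beads as removing mRNA, the methods as enriching it. The deposited FPKM were used without further normalization, and no count test was run.

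FPKM hold no read numbers. Among genes below FPKM 0.05 in both libraries the commonest ratio was 0.96 for replicate 1 to 2, 0.99 for 1 to 3 and 1.04 for 2 to 3, so relative depth differed little. Groups were compared within each library on log2(FPKM + 1), a scale that understates the change of low genes, without a filter. Sign-flip tests planned over libraries are not given, since the genes were chosen on these values.

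The pair fit used limma 3.58.1 (R 4.3.3) with A minus D on log2(FPKM + 0.42), over 1999 of 2580 listed pairs with mean FPKM of 1 or more in either homeolog, and called at a Benjamini-Hochberg adjusted p below 0.05 and an absolute log2 fold change of at least 1. A and D values of a library deviated together (r = 0.547 over pairs), and the library number pairs them. The main fit did not use this pairing. With the replicate as a block the SE was 0.098 for Gh_A01G1265 and 0.14 for Gh_A01G1387, with the differences unchanged. The pseudocount of 0.42 was taken over from earlier work on these data, where it had been fitted to the study's own fold changes, so calls that match the study's classes are partly built in. A pseudocount of 1 was the alternative. Every member is named, and library values are given for those highest, lowest, most or least variable, paired, or in the module. Other homeologs of the set and the ChIP-seq data were not analysed here. The RefSeq gene table at hand matched 0 of the identifiers, so no coordinates or sequences are given. A leaf gene planned as a marker was left out, because its name could be read only from a picture. Figures were drawn with Python 3.11.15 and matplotlib 3.10.9.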

Additional observations from a re-analysis of the deposited data

Results flagged for a closer look

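Each of these differences was picked out because the effect had opposite signs in every library of the groups set side by side, and none of them was tested. The gap of A-biased over D-biased genes was 0.80 ± 0.03 (SD, n = 3) on the log2(FPKM + 1) scale in the MYB set and -0.10 ± 0.03 (SD, n = 3) in the other listed TFs, a difference of 0.90 ± 0.02. Set beside the bHLH factors, at -1.36 ± 0.16, the difference was 2.16 ± 0.13. The gap of MYB over MYB-related genes was 0.44 ± 0.12 among A-biased and -0.37 ± 0.25 among D-biased genes, a difference of 0.81 ± 0.34, and the D-biased MYB-related group held 4 genes. The SD over genes within each of these family groups was larger than either gap. With 3 libraries a group is too small for a check of single outlying libraries.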

How the results depend on the processing

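Values are differences in mean log2(FPKM + 1) unless another setting is named. A-biased minus D-biased genes gave 0.92 at a pseudocount of 0.1, 0.76 over genes with FPKM of 1 or more in every library, 1.20 with the median over genes and 0.79 to 0.82 without each replicate in turn. Restricted to the MYB family it was 1.01 and to genes with H3K4me3 alone 0.99, alternatives chosen after seeing the data. Both marks minus H3K4me3 alone gave -1.29 at a pseudocount of 0.1 and -1.21 over genes with FPKM of 1 or more, -1.16 to -1.13 without each replicate, and, chosen after seeing the data, -1.29 in A-biased and -0.72 in D-biased genes. The MYB set minus the other TFs gave -0.31, -0.22 and -0.51 at the pseudocount, filter and median settings, -0.35 without the highest gene of each group, and -0.28 to -0.27 without each replicate. MYB minus MYB-related changed sign, at 0.12 with the filter and 0.20 with the median, 0.44 and -0.37 within A-biased and D-biased genes, and -0.10 to -0.02 without each replicate. FPKM of 1 or more in every library held for 40 genes of the set, and for 40 to 42 without each replicate. In the main setting it held for 329 of the 341 other listed TFs. Pairs called with A higher numbered 215, 216 with the replicate block, 232 with columns centred on their medians, 213 to 215 without each replicate, 173 at a pseudocount of 1 in place of 0.42, and 75 with a minimum mean FPKM of 10, where 866 pairs were tested. The 3 pairs of the set kept their direction and call in each setting in which they were tested. Their genes were chosen by this contrast in these same libraries, so this is no independent check. The study lists read totals for the libraries, but with no counts per gene, depth limits for single genes cannot be given.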

Other observations

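Another listed TF lay within 10 gene numbers of 4 genes of the set, a distance chosen after the data were seen. The share for the other listed TFs was not computed, so the count is a description only. The closest was Gh_D13G0330, a bHLH gene, which is 2 numbers from the MYB-related gene Gh_D13G0332. Gh_D13G0332 stood at 2.07 ± 0.453 FPKM (SD, n = 3) and is listed with H3K27me3 alone, while Gh_D13G0330 stood at 166 ± 1.52 FPKM (SD, n = 3) and is listed with H3K4me3 alone. Both are D-biased. Gh_A12G2299, at 25.2 ± 3.87 FPKM (SD, n = 3), lay 7 numbers from the WRKY gene Gh_A12G2292. That gene stood at 0.953, 1.08 and 0.969 FPKM in replicates 1, 2 and 3. Both are A-biased and listed with H3K4me3 alone. In the other pairs, Gh_A01G1265 at a mean of 9.35 FPKM lay near the SBP gene Gh_A01G1274 at 5.79. Gh_D11G3276 at a mean of 23.7 FPKM lay near the NF-YB gene Gh_D11G3286 at 2.78.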
